A study of Mus musculus with 8 samples.

Results

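The genes described here were 10 parts of the Notch pathway: the receptors Notch1, Notch2 and Notch3, the ligands Dll1, Jag1 and Jag2, the target genes Hes1, Hey1 and Heyl, and the DNA-binding factor Rbpj. They were taken by gene symbol from a table of 18877 genes, and all 10 were present and passed the filter on low values, a mean of at least 10 normalized reads over the 8 libraries, which left 11754 genes for testing. The libraries came from activated muscle stem cells (ASCs), the stem cells of skeletal muscle after they have left quiescence, purified from mouse tibialis anterior muscle 2 days after it was injured by 50 uL of 1.2% barium chloride. There were 4 wild-type libraries and 4 from mfn2-/- animals, in which floxed Mfn2, the gene of the mitochondrial outer membrane protein mitofusin 2, was deleted. In both genotypes tamoxifen at 75 mg/kg on each of 5 days activated Pax7-CreERT2, a recombinase driven by the stem cell gene Pax7, and a mito-Dendra2 allele marked the recombined cells. The Pax7 driver limits the deletion to cells that expressed Pax7 at the time of tamoxifen and to their progeny. Living cells were sorted as Dendra2+ and CD34-. Age and sex of the animals were not given in the sources used here, nor was it stated that each library was a separate animal, so the p-values measure the spread between libraries.

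Notch signaling passes between touching cells. A ligand of the Delta or Jagged family on one cell binds a Notch receptor on its neighbor, the receptor is cut, and its intracellular domain moves to the nucleus, where it binds RBPJ. RBPJ holds target genes silent with corepressors when no receptor domain is present and turns them on with it, and the Hes and Hey genes that it controls encode repressors of transcription. In muscle stem cells the pathway is known for keeping the cells quiescent and undifferentiated, and its activity falls as activated cells enter myogenic differentiation.

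The libraries held 1880464 to 7508215 reads, lowest in wild-type replicate 1 and second lowest in mfn2-/- replicate 4 (2269009), and values are normalized read counts unless stated. The mfn2-/- replicate 4 library stood apart, with 9646 genes detected against 12613 to 15270 in the other 7. Y-linked reads occurred in 2 libraries of each genotype, replicates 3 and 4 of wild-type and replicates 1 and 2 of mfn2-/-, while the other 2 held 0, and changes are also given within each kind of library. Mfn2 itself measured 243, 245, 202 and 228 in the wild-type libraries and 104, 118, 172 and 109.95 in the mfn2-/- libraries, without overlap. On the log2 scale it differed by -0.88 (SE 0.30), which did not pass the threshold by limma (adjusted p 0.0848), and the two-sided exact permutation test gave p = 0.0286, the smallest that 4 against 4 libraries allow. Reads summed over a gene do not separate full transcripts from transcripts that lack the floxed part. The stem cell label was checked against Pax7, which lay between 582 and 803 in all 8 libraries. Of 9 muscle stem and progenitor markers, 3 were called higher (Myod1, Sdc4 and Des) and 0 lower in mfn2-/- ASCs, beside 3.99% and 6.36% of all genes tested. The log2 changes were positive for 6 and negative for 3. Among the negative ones were Myog at -1.37 and Itga7 at -0.87 (limma adjusted p 0.110 each). Myog was at -2.78 in the libraries with Y-linked reads and 0.05 in those without (limma interaction adjusted p 0.0325). Markers of connective tissue cells were carried mainly by the wild-type libraries: the 11 fibroadipogenic markers summed to 173040 to 239739 in wild-type and 1045 to 3307 in mfn2-/- libraries, with 9 of 11 called lower, and the 9 tenocyte markers summed to 38669 to 60889 and 306 to 415, with 9 of 9 called lower. In bulk RNA, fewer cells of a type and less RNA per cell cannot be told apart.

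Rbpj was the Notch gene that passed the threshold, and a gene that did not pass was not shown to be unchanged. The Rbpj mean was 2.08-fold higher in mfn2-/- ASCs, and the limma log2 change gave a 95% interval of the fold of 1.57 to 2.78. The receptors, ligands and targets around Rbpj did not pass the threshold. By limma, with Benjamini-Hochberg adjustment over all genes tested, Rbpj was the 1 of 10 genes called at an adjusted p under 0.05. Of the 10 genes 0 were called lower. Over all genes tested the same fit called 10.4%, of which 3.99% of genes tested were higher and 6.36% lower in mfn2-/- ASCs, so that 1 called gene in 10 is close to the background. The groups did not overlap for 1 of the 10 genes, again Rbpj, beside 19.5% of all genes tested. At an unadjusted p under 0.05 there were 2 of 10, Rbpj and Heyl, beside 24.8% of all genes tested. The median log2 change of the 10 genes was -0.15, beside -0.16 over all genes tested.

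Rbpj encodes the factor through which all Notch receptors act on DNA (GENCODE M21 annotation of GRCm38, chr5:53466152-53657362, plus strand). The wild-type libraries measured 1042, 713, 1046 and 958, and the mfn2-/- libraries 1902, 1777, 2393 and 1752. Each mfn2-/- library lay above each wild-type library. The means were 940 ± 156 and 1956 ± 299 (SD, n = 4 each), and the log2 change was 1.06 (SE 0.19, 95% interval 0.65 to 1.47, limma adjusted p 0.00338), with an exact permutation p = 0.0286. It was 0.88 in the libraries with Y-linked reads and 1.25 in those without, and 1.11 when mfn2-/- replicate 4 was left out (limma adjusted p 0.00348). The call was lost in 1 of 21 alternative settings, the fit without an intensity trend, where the same change had a limma adjusted p of 0.0616. The genome holds the processed pseudogene copies Rbpj-ps1 and Rbpj-ps3 and the antisense genes Gm10441 and Gm40304 overlap Rbpj. None of these 4 was listed in the table, and the strand setting of the counting was not stated, so the share of reads from them was not tested.

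**Figure D1:**
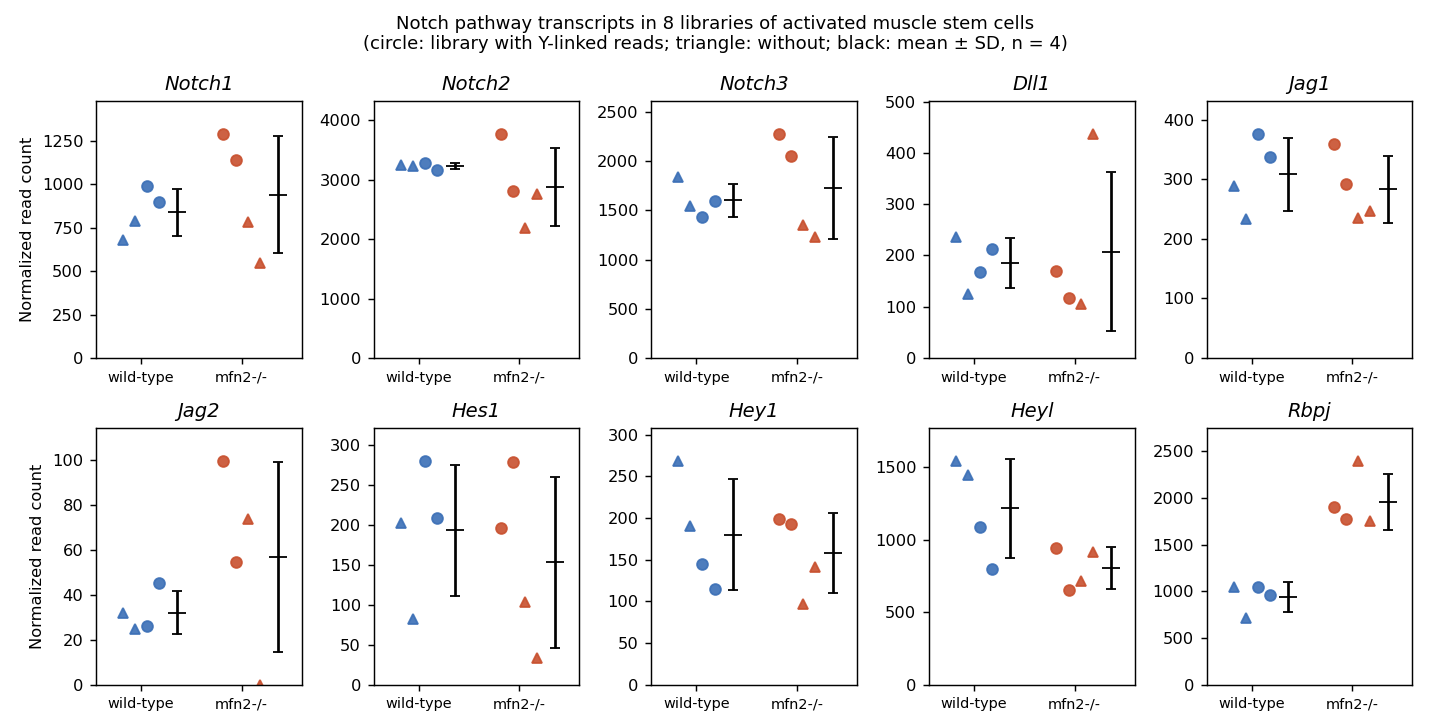
Normalized read counts (y axis, linear, starting at 0) of the 10 Notch genes in the 4 wild-type (blue) and 4 mfn2-/- (red) libraries, in replicate order from left to right. Circles are libraries with Y-linked reads and triangles those without, and black bars give the mean ± SD (n = 4). The 4 mfn2-/- libraries of Rbpj, from 1752 to 2393, sit above the 4 wild-type libraries, from 713 to 1046, and the groups overlap in the other 9 panels.

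Because Rbpj was the gene called, the 250 bases before 1 of its RefSeq starts (RefSeq, GRCm38.p6, chr5:53590096-53590345, plus strand) are shown. The letters TGGGAA or TTCCCA, the core that RBPJ is known to bind, are in capitals. This window lies inside the GENCODE span of Rbpj, which begins at 53466152, so it does not precede the outermost annotated start.
Rbpj promoter: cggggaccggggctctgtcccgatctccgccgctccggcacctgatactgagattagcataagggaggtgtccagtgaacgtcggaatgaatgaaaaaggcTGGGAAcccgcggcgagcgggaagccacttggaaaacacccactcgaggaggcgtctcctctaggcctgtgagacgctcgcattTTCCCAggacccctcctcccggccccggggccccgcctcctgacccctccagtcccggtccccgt
The core occurred here 149 and 65 bases before the start, once on each strand. A second RefSeq start of Rbpj lies 140 bases downstream, and its window shares 1 of these cores. For 7 of the 10 genes found in the promoter table, with 9 windows in all, the core was in 2 windows, both of Rbpj. Of all 32851 promoter windows of that length 21.6% held it, so 2 of 9 is close to the background. The table held no match for Hes1, Hey1 and Heyl. The hypoxia response core ACGTG or CACGT was in 2 of the 9 windows, the second window of Rbpj and that of Notch3, beside 16.6% of all windows. The E-box CACGTG, which overlaps that core, was in 0 of 9, beside 6.02%. These are matches of letters only, and no binding was measured.

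The receptors were the most abundant group, and none of the 3 passed the threshold. Notch2 (chr3:98013527-98150361, plus strand) measured 3249.9, 3224, 3281 and 3157 in wild-type libraries and 3762, 2810.2, 2188 and 2762 in mfn2-/- libraries. The wild-type libraries lay within a narrow band, a coefficient of variation of 1.63%, and the mfn2-/- libraries spread on both sides of it, at 22.6%. The wild-type value was the lowest among the 10 genes, and 6 of the 10 had the higher coefficient in mfn2-/- libraries. The log2 change was -0.19 (SE 0.19, 95% interval -0.60 to 0.21, limma adjusted p 0.571).

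Notch3 (chr17:32120820-32166852, minus strand), a receptor prominent in mural cells of vessels and also present in muscle stem cells, measured 1833, 1546, 1432 and 1593 in wild-type libraries and 2271, 2056, 1351 and 1224 in mfn2-/- libraries. Of the mfn2-/- libraries 2 lay above the wild-type range and 2 below it. Its log2 change was 0.06 (SE 0.22, 95% interval -0.41 to 0.54, limma adjusted p 0.884). Notch1 (chr2:26457903-26516663, minus strand), the receptor most studied in muscle stem cell quiescence, measured 678, 787, 991 and 899 in wild-type libraries and 1288, 1140.0, 786 and 544 in mfn2-/- libraries. Here too the first 2 mfn2-/- libraries were above the wild-type range, and mfn2-/- replicate 4 was below it. The log2 change was 0.10 (SE 0.26, 95% interval -0.47 to 0.67, limma adjusted p 0.849), and 0.34 without mfn2-/- replicate 4. The antisense genes 0610009E02Rik at Notch1 and Gm17276 at Notch3 overlap these receptors, and reads of the partners cannot be told apart unless strand was used in counting. The 9 markers of mural cells, the other cell type known for Notch3, summed to 2561 to 3714 in wild-type and 1351 to 1950 in mfn2-/- libraries. Of the 7 tested, 3 were called lower (Pdgfrb, Cspg4 and Mcam) and 1 higher (Abcc9), beside 6.36% and 3.99% of all genes tested. The log2 changes were positive for 1 and negative for 6. Higd1b was at 0 in all mfn2-/- libraries and 3 of 4 wild-type libraries. The part of mural cells in the receptor values was not tested.

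The ligands were less abundant. Jag1 (chr2:137081456-137116644, minus strand), a Jagged ligand, measured 289, 233, 376 and 337 in wild-type libraries and 359, 292, 235 and 247 in mfn2-/- libraries, with the ranges nearly coincident. Its log2 change was -0.12 (SE 0.26, 95% interval -0.68 to 0.43, limma adjusted p 0.812). Dll1 (chr17:15367354-15376872, minus strand), a Delta ligand that myogenic cells present to their neighbors, measured 237, 124, 167 and 212 in wild-type libraries and 170.0, 118, 106 and 436 in mfn2-/- libraries. The highest Dll1 value of all was in mfn2-/- replicate 4, where the number of genes detected was lowest. The log2 change was -0.04 (SE 0.44, 95% interval -0.98 to 0.90, limma adjusted p 0.964), and -0.48 without that library (limma adjusted p 0.411). The 11 endothelial markers, from a cell type rich in Notch ligands, summed to 1312 to 2610 in wild-type and 1693 to 2746 in mfn2-/- libraries. Of these 11, 0 were called in either direction, beside 10.4% of all genes tested.

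Jag2 (chr12:112907819-112929776, minus strand), the other Jagged ligand, was the scarcest of the 10 genes and the one that rested most on a single library. The wild-type libraries held 14, 24, 32 and 85 reads and the mfn2-/- libraries 149, 69, 100 and 0. As normalized read counts these were 31.8, 24.9, 26.1 and 45.4 against 99.3, 54.5, 73.7 and 0. The 3 mfn2-/- libraries with reads lay above all wild-type libraries, and the value of 0 fell in mfn2-/- replicate 4, where 3 reads would have given 5.50. Over all 8 libraries the log2 change was -0.34 (SE 1.31, 95% interval -3.16 to 2.48, limma adjusted p 0.898). Without mfn2-/- replicate 4 it was 1.22 (SE 0.56, limma adjusted p 0.195), and the mean of the remaining 3 was 75.9 ± 22.5, 2.37-fold the wild-type mean of 32.1 ± 9.39. Neither value passed the threshold.

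The 3 target genes had negative log2 changes, and 0 of 3 passed the threshold. Negative changes were also the more common ones over all genes tested, 6563 of 11754, with a median of -0.16. Heyl (chr4:123233556-123249875, plus strand), the Hey family repressor most abundant here, measured 1542, 1445, 1087 and 799.7 in wild-type libraries and 945, 653, 718 and 916 in mfn2-/- libraries. All but wild-type replicate 4 were above the mfn2-/- range. The means were 1218 ± 341 and 808 ± 145, a ratio of 0.663. The log2 change was -0.56 (SE 0.23, 95% interval -1.07 to -0.06), and the limma p of 0.0314 became 0.153 after adjustment over all genes. An exact permutation test gave p = 0.0857. Over the 21 alternative settings the change stayed negative, from -0.75 to -0.36, with limma, edgeR or DESeq2 adjusted p between 0.0663 and 0.359.

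Hes1 (chr16:30064384-30067796, plus strand), the classical Notch target, measured 202, 81.9, 279 and 208 in wild-type libraries and 196, 278, 104 and 33.0 in mfn2-/- libraries. The lowest value was again in mfn2-/- replicate 4, where it rested on 18 reads. The difference was -0.58 on the log2 scale (SE 0.60, 95% interval -1.88 to 0.71, limma adjusted p 0.590), and 0.02 without that library. Hey1 (chr3:8663359-8667256, minus strand), a second Hey family repressor, measured 268, 191, 145 and 115 in wild-type libraries and 199, 193, 97.3 and 141 in mfn2-/- libraries, with overlapping ranges. Its log2 change was -0.17 (SE 0.37, 95% interval -0.98 to 0.63, limma adjusted p 0.813).

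**Figure D2:**
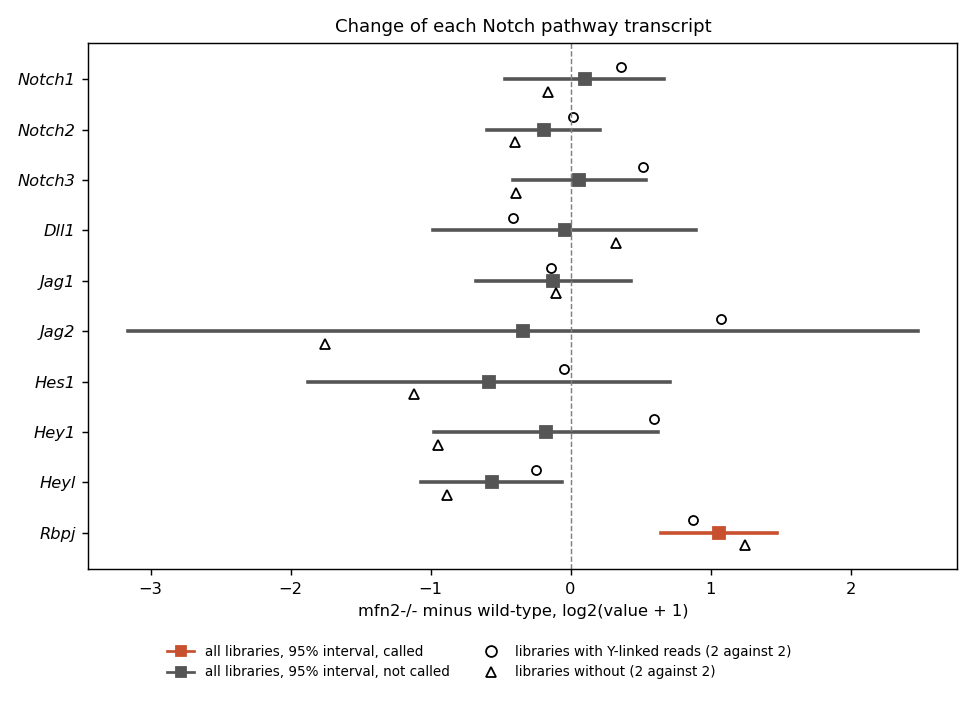
Change of each Notch gene in mfn2-/- against wild-type ASCs, as the difference of log2(value + 1) on the x axis. Squares with bars are the estimate and 95% interval over all 8 libraries, red where called, and open circles and triangles are the differences within the libraries with and without Y-linked reads (2 against 2 each). Rbpj is at 1.06 with both kinds to the right of 0, and Jag2 has the widest interval, from -3.16 to 2.48.

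Within the 2 kinds of library the genes divided. Rbpj, Jag1, Heyl and Hes1, 4 of the 10, had the same sign in both kinds. Notch3, at 0.52 in the libraries with Y-linked reads and -0.39 in those without, had the lowest p for a difference between the kinds. Its interaction p was 0.00231, which became 0.103 by limma adjusted over all genes. Hey1 gave 0.59 and -0.94 (limma interaction p 0.0265, adjusted p 0.330). Among the 10 genes 0 passed the adjusted threshold for an interaction, beside 1.47% of all genes tested, and 2 had an unadjusted p under 0.05, beside 12.0% of all genes tested. Heyl was at -0.25 and -0.88, Hes1 at -0.05 and -1.12 and Jag1 at -0.14 and -0.11. Notch1 was at 0.36 and -0.16, Notch2 at 0.02 and -0.40, Dll1 at -0.41 and 0.33 and Jag2 at 1.07 and -1.75. The kind without Y-linked reads includes both the shallowest wild-type library and mfn2-/- replicate 4, so depth and kind cannot be told apart here.

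Levels of different genes were compared per kb of exon, as normalized reads divided by the joined exon length of the protein-coding transcripts. In wild-type ASCs the order ran from Notch2 (307 ± 5.02 per kb) through Heyl (269 ± 75.1), Notch3 (199.7 ± 21.04), Rbpj (135 ± 22.5), Hes1 (131 ± 55.8), Notch1 (88.4 ± 14.3), Hey1 (74.3 ± 27.5), Jag1 (55.0 ± 10.97) and Dll1 (51.7 ± 13.8) to Jag2 (6.28 ± 1.84). The ranges of neighbors in this order did not overlap between Notch3 and Rbpj and between Dll1 and Jag2, and overlapped at every other step. In mfn2-/- ASCs Rbpj stood first, at 282 ± 43.0 per kb, followed by Notch2 (274 ± 62.1), Notch3 (215 ± 64.4) and Heyl (178 ± 31.9). Its range overlapped that of Notch2, so the first places were not separated. Notch2 made up 50.6% to 52.7% of the reads per kb of the 3 receptors in wild-type libraries and 41.5% to 55.6% in mfn2-/- libraries. Rbpj per kb was 0.176 to 0.253 of the summed receptors per kb in wild-type libraries and 0.352 to 0.749 in mfn2-/- libraries, without overlap. The summed receptors per kb were 596 ± 10.95 and 589 ± 151.

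**Figure D3:**
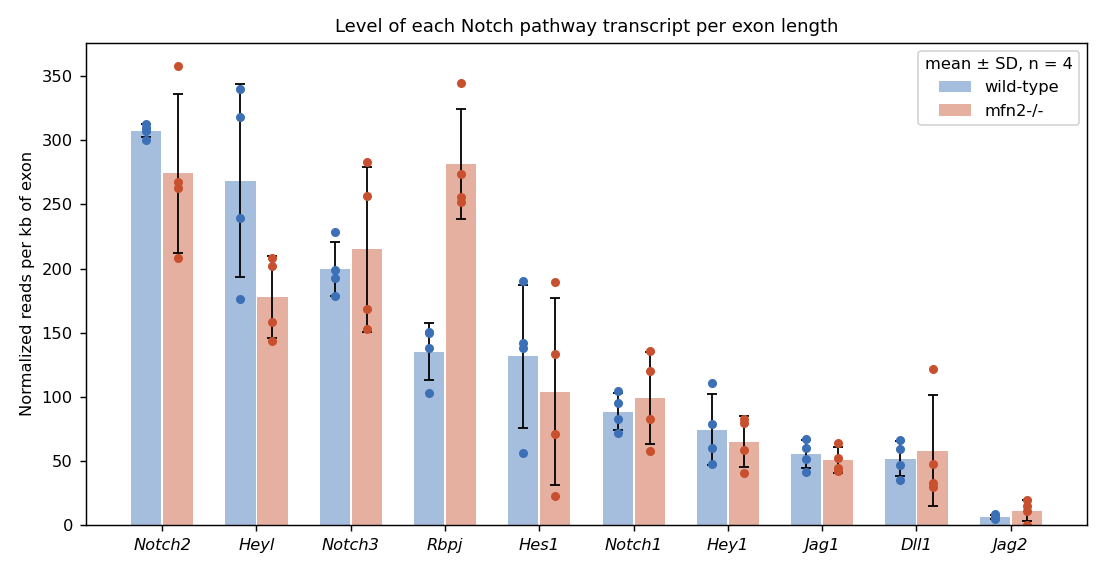
Normalized reads per kb of exon (y axis, starting at 0) for the 10 Notch genes, ordered by the wild-type mean. Bars are means, error bars SD (n = 4) and points single libraries, wild-type in blue and mfn2-/- in red. Rbpj is 4th in wild-type ASCs, at 135, and has the highest mean in mfn2-/- ASCs, at 282.

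Other genes of the pathway were read from 9 lists by role, 70 genes of which 69 were in the table and 60 were tested. By limma 1 was called higher and 6 lower in mfn2-/- ASCs, beside 3.99% and 6.36% of all genes tested, and the median log2 change was -0.09. Without the last list, the targets known from muscle stem cells, 54 were tested, and 1 was called higher and 2 lower. The groups did not overlap for 11 of the 54, beside 19.5% of all genes tested, and these counts were close to the background.

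Among coactivators, which join RBPJ once a receptor domain is bound, 1 of 7 was higher and 0 lower (3.99% and 6.36% over all genes). This was Ep300, a histone acetyltransferase recruited to the Notch complex and shared with many other factors. It measured 864, 1017, 1075 and 999 in wild-type libraries and 2069.6, 1661, 1434 and 1301 in mfn2-/- libraries, without overlap. On the log2 scale it rose by 0.69 (SE 0.19), with a limma adjusted p of 0.0348. The difference was 0.84 within the libraries with Y-linked reads and 0.54 in the others. Ep300 was called in 10 of 21 alternative settings, and of the fits that left out 1 library it was called in the fit without mfn2-/- replicate 4 alone. Snw1, an RBPJ partner, had a log2 change of 0.57 (limma adjusted p 0.388). This change rests in part on wild-type replicate 2, which measured 94.4, with 314 to 322 in the other wild-type libraries. Of 13 corepressors 0 passed in either direction. Ncor1, a corepressor shared with nuclear receptors, measured 1446 ± 154 in wild-type and 1842 ± 209.8 in mfn2-/- ASCs (limma adjusted p 0.230).

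Among the enzymes that add sugars to Notch receptors 1 of 4 tested was lower and 0 higher, beside 6.36% and 3.99% of all genes. Pofut1, which adds the O-fucose that receptors need for ligand binding, measured 316, 205, 253 and 212 in wild-type libraries and 135, 109, 64.1 and 66.0 in mfn2-/- libraries, without overlap. On the log2 scale it fell by 1.44 (SE 0.36), with a limma adjusted p of 0.0228. The difference was -0.93 within the libraries with Y-linked reads and -1.95 in the others. It was called in 16 of 21 alternative settings and not called without wild-type replicate 1, 3 or 4 or mfn2-/- replicate 3. Poglut1, which adds O-glucose, had a log2 change of -0.97 (limma adjusted p 0.374). Among 11 genes of Notch inhibition and turnover 1 was lower and 0 higher, beside 6.36% and 3.99% of all genes tested. This was Dtx4, a Deltex ubiquitin ligase that acts on Notch receptors, with 1317, 1917, 2059.6 and 1765 in wild-type libraries and 1230.2, 1158, 954 and 460.0 in mfn2-/- libraries. Its groups did not overlap, although wild-type replicate 1 came close to the mfn2-/- range. On the log2 scale it fell by 0.97 (SE 0.29), with a limma adjusted p of 0.0474. The difference was -0.68 within the libraries with Y-linked reads and -1.26 in the others. Dtx4 was called in 9 of 21 alternative settings, and of the fits that left out 1 library in those without wild-type replicate 1 or mfn2-/- replicate 1. Nedd4, a ubiquitin ligase with many substrates and the most abundant gene of this list, measured 8518 ± 1023 and 6661 ± 325 (limma adjusted p 0.255).

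Of the remaining roles 0 genes passed. Receptor cleavage had 9 tested genes, among them Furin (399 ± 66.6 in wild-type and 549 ± 118 in mfn2-/- ASCs, limma adjusted p 0.266), which matures the receptor. The 4 ligand ubiquitin ligases included Mib1, which ligands need for signaling (672 ± 91.3 and 489.8 ± 66.2, limma adjusted p 0.176), and Mib2 (138 ± 37.1 and 134 ± 42.8, adjusted p 0.917). Of other receptors and ligands 3 were tested, with Dlk1, an atypical ligand, at 144 ± 32.9 and 70.4 ± 37.6 (limma adjusted p 0.157) and Notch4, a receptor of endothelium, at 62.4 ± 32.2 and 33.7 ± 19.1 (adjusted p 0.507). Of the other Hes, Hey and Nrarp targets 3 were tested, including Hes6 (41.1 ± 18.9 and 46.6 ± 37.5, limma adjusted p 0.995) and Nrarp (30.2 ± 14.02 and 30.4 ± 25.5, adjusted p 0.729).

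**Figure D4:**
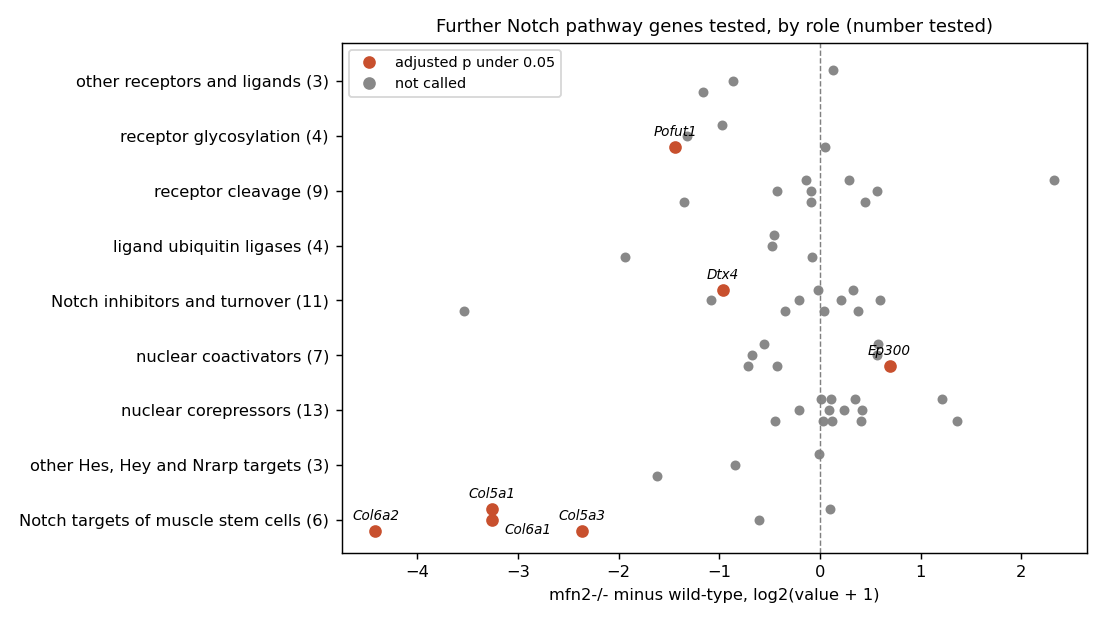
Change in mfn2-/- against wild-type ASCs, as the difference of log2(value + 1) on the x axis, of the 60 further Notch pathway genes tested, 1 point per gene in 9 rows by role with the number tested. Red points are called at an adjusted p under 0.05 by limma. Ep300 is the called gene to the right of 0, and the 4 collagens lie farthest to the left among the called genes, from -4.42 to -2.36.

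The last list held 6 genes listed as Notch targets of muscle stem cells. Of these, 4 of 6 were lower and 0 higher, beside 6.36% and 3.99% of all genes tested. The 4 called were collagens: Col5a1 fell from 6766 ± 765 to 739 ± 262, Col5a3 from 2964 ± 246 to 639 ± 319, Col6a1 from 9833 ± 1356 to 1038 ± 242 and Col6a2 from 6272 ± 1031 to 294 ± 54.5. The log2 changes were -3.26, -2.36, -3.26 and -4.42, with limma adjusted p of 0.000388 or less, and these 4 were called in all 21 alternative settings. Collagens V and VI are also made in bulk by connective tissue cells, and the fibroadipogenic and tenocyte markers moved with them, as given above, and their part in the collagen values was not tested. The 2 genes of this list that are not collagens did not pass. Pax7 had a log2 change of 0.10 (limma adjusted p 0.780). Calcr, the calcitonin receptor of quiescent muscle stem cells, measured 337, 483, 209 and 284 in wild-type and 193, 235, 94.3 and 412 in mfn2-/- libraries, a log2 change of -0.61 (adjusted p 0.393).

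The transcripts that followed the main receptor, ligand and target most closely over the 8 libraries were looked up among the 5584 genes averaging 100 or more, by Pearson r of log2(value + 1). For Notch2 they were Wdr13 (r = 0.931), Htra3 (0.912), a secreted serine protease, and Thsd4 (0.911), an extracellular matrix protein. For Jag1 they were Znfx1 (0.935), Pip5k1c (0.923), a phosphoinositide kinase, and Gnao1 (0.903), a G protein subunit. For Heyl they were Ank2 (0.969), an ankyrin of the membrane skeleton, Epb4.1l1 (0.960) and Fbxo21 (0.931), an F-box protein. None of the other Notch genes was among these 9. The 8 points share 2 genotypes and unequal depth, and these values are given as a description.

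**Figure D5:**
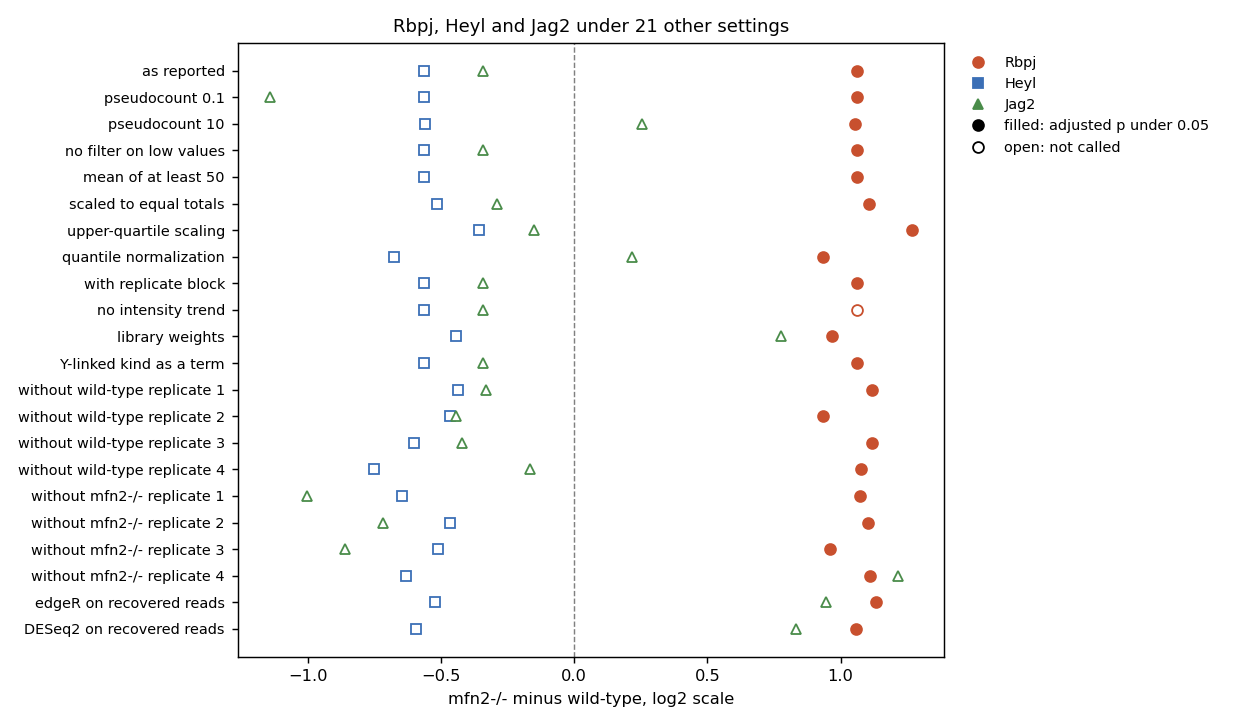
Log2 change in mfn2-/- against wild-type ASCs (x axis) of Rbpj, Heyl and Jag2 as reported and under 21 other settings (y axis), with filled symbols where the adjusted p was under 0.05. Rbpj lies between 0.93 and 1.27 and is open in the fit without an intensity trend, Heyl is open throughout from -0.75 to -0.36, and Jag2 crosses 0.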

How the data were processed

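RNA of sorted ASCs was made into libraries by the authors with a stranded low-input total RNA kit (SMARTer pico). The submitters' processing notes name Trim Galore, HISAT2, featureCounts, DESeq2 and the build mm9, without an annotation or a strand setting. The values deposited by the authors give each gene's signal as a normalized read count. Within 0.01 of a read, 100% of the values of each library were whole multiples of 1 step, as counts divided by 1 size factor are, and whole reads were recovered (1 read was worth 0.534 to 2.27 normalized reads). The 2 shallowest libraries, wild-type replicate 1 and mfn2-/- replicate 4, give the least precise values. Groups and replicate numbers were taken from the titles.

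Genes with a mean of at least 10 entered the two-sided limma test (version 3.58.1, R 4.3.3). It used log2(value + 1), which understates changes of weak genes, a trend of variance with intensity and the genotype alone, and Benjamini-Hochberg adjustment was over all genes tested, with 0.05 as the threshold. The interaction with the presence of Y-linked reads used the same fit with that factor added. Single genes were also compared by two-sided exact permutation over the 70 arrangements. The alternatives were other pseudocounts (0.1 and 10), no filter or a mean of at least 50, 3 other scalings, a replicate block, no trend, library weights, a term for Y-linked reads, each library left out, and count tests of the recovered reads by edgeR 4.0.16 and DESeq2 1.42.0. The limma, edgeR and DESeq2 tests were also run on simulated counts of 11228 genes. Log2 changes of 1 were planted in 98 genes tested and of 2 in 97. Of the changes of 1, limma recovered 2.04%, edgeR 1.02% and DESeq2 4.08%. Of the changes of 2 they recovered 34%, 35.1% and 48.5%, in the same order. Of their calls 14.6%, 10.3% and 36.2% were false. Most planted changes were missed. The simulation changed only these few genes, whereas 10.4% of genes tested were called in the data. The adjustment was therefore stricter in the simulation, and its shares do not carry over to the fit reported here. A gene not called was not shown to be unchanged. Libraries of 1 group all differed by more than sampling noise (chi-square per degree of freedom of 11.67 or more).

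The 10 genes and all lists were chosen with earlier results of these data known. The text names those 10, Mfn2, the called and the 2 most abundant genes of each further list, and the 3 genes closest to the most abundant receptor, ligand and target. Of the genes that this rule names, 2 are not reported here. Calcr and Pax7 were named beside this rule, to complete the list of muscle stem cell targets. Eogt, Rita1 and Adgre1 were found under older symbols and Hes5 was not matched. Coordinates and exon lengths are from GENCODE M21 (GRCm38), not the mm9 of the counting. Tables and figures were made in Python 3.11.15.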

Additional observations from a re-analysis of the deposited data

Results flagged for a closer look

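Among the 10 Notch genes, Mfn2 and the named further pathway genes, 62 groups of 4 libraries were searched for a library whose gap to its nearest neighbor took up most of the group's range (Dixon's ratio above its 95% critical value), which chance alone gives in about 3 of 62. There were 3 such values, and 0 of them belonged to the 10 Notch genes. Mib2, a ubiquitin ligase of Notch ligands, measured 193 normalized reads in wild-type replicate 1, with 115 to 122 in the other 3 wild-type libraries. Mib2 also measured 70.0 in mfn2-/- replicate 3, with 148 to 159 in the other 3 mfn2-/- libraries. Snw1, a partner of RBPJ, measured 94.4 in wild-type replicate 2, with 314 to 322 in the other 3 wild-type libraries.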

How the results depend on the processing

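The call of Rbpj held in 20 of 21 alternatives and was lost without an intensity trend, where 0 of the 10 Notch genes were called. Of the further pathway genes 7 were called as reported, 4 without an intensity trend, 12 with library weights (4 higher and 8 lower, all 7 among them) and 4 to 6 when single libraries were left out. The 4 were the collagens, without wild-type replicate 3, wild-type replicate 4 or mfn2-/- replicate 3. DESeq2 called 8 (1 higher and 7 lower), the 7 as reported and Dtx1 of the inhibition and turnover list. Mfn2 passed with library weights (-0.87, limma adjusted p 0.0099). Genes not called changed sign as follows. Jag2 was at 0.25 with a pseudocount of 10, 0.22 with quantile normalization, 0.78 with library weights, 0.95 by edgeR and 0.83 by DESeq2, was not tested at a mean of at least 50, and ran from -1.002 to 1.22 with libraries left out. Dll1 was at 0.0039 scaled to equal totals, 0.16 with upper-quartile scaling, 0.080 with quantile normalization, 0.17 by edgeR and 0.16 by DESeq2, and ran from -0.48 to 0.20. Upper-quartile scaling gave 0.015 for Notch2, 0.083 for Jag1 and 0.030 for Hey1, and quantile normalization -0.037 for Notch1 and -0.076 for Notch3. Library weights gave 0.32 for Hey1 and 0.0058 for Hes1. With libraries left out Notch1 ran from -0.077 to 0.34, Notch3 from -0.085 to 0.21, Hes1 from -0.997 to 0.016 and Hey1 from -0.36 to 0.040. The causes were not tested. Upper-quartile scaling moved the median of all genes from -0.16 to 0.04 and quantile normalization to 0.07, and relative to that median Rbpj stayed between 0.87 and 1.33 and Heyl between -0.75 and -0.22. Calls over all genes were 1217 (469 higher, 748 lower), 1476 with upper-quartile scaling (844 and 632), 633 without a trend (113 and 520), 3037 with library weights (1398 and 1639), 671 and 749 without wild-type replicates 3 and 4, and 1158 by edgeR. DESeq2 called 1738 (648 higher, 1090 lower). With the replicate number as a block 1043 genes were called, and Rbpj had a limma adjusted p of 0.00449 and a change of 1.06. Deviations of same-numbered libraries correlated at -0.111 to 0.0383, so no pairing by number was seen. So few libraries cannot exclude a pairing, and the titles do not say whether the numbers pair libraries. In 7 alternatives 0 of the interactions with Y-linked reads passed, of 10 tested, or 9 at a mean of at least 50, where Jag2 was left out. Depth limits Jag2 most, with 14 to 85 reads in wild-type libraries.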
